A study of Mus musculus with 6 samples.

Results

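The genes described here encode voltage-gated sodium and calcium channels in the mouse habenula, a paired nucleus of the epithalamus that relays forebrain signals to the midbrain. The 28 members were chosen by gene symbol, out of 55359 genes counted. They comprise 9 sodium channel alpha subunits, 3 sodium channel beta subunits, the sodium leak channel gene Nalcn, 7 calcium channel alpha1 subunits, 4 alpha2delta subunits and 4 calcium channel beta subunits. Total RNA was taken from frozen habenulae of C57BL/6 mice aged 2 months and sequenced. The labels give 3 libraries of Tet2 conditional knockout (Tet2 cKO) mice and 3 libraries of wild-type (WT) mice. Both groups share strain, tissue and age. The sources used here do not give the Cre driver, the deleted exons or the animal behind each library. The p-values therefore measure library-to-library spread, which may be technical. The comparison asks whether channel transcripts differ when Tet2, a dioxygenase that oxidises methylated cytosine in DNA, is deleted.

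The pore of a voltage-gated sodium channel is a single alpha subunit, which opens on depolarisation and carries the upstroke of the action potential. Beta subunits are small membrane proteins that change its gating and its placement. Calcium channels are built around an alpha1 pore, and the extracellular alpha2delta and the cytoplasmic beta subunits bring that pore to the membrane and tune it. Habenular neurons fire tonically and in bursts, and these channels, among others outside the list, contribute to both patterns together with the leak current of Nalcn.

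Among the members tested, no difference between the labels was called. Members under the filter given next, Scn7a and Scn11a among them, were outside this test and are described further down. Of the 28 members, 22 had a mean of at least 1 FPKM (fragments per kilobase of exon, scaled to the library total) over the 6 libraries and were tested with edgeR on the deposited counts. None of the 22 was called at a Benjamini-Hochberg adjusted p of 0.05, and each had an adjusted p of 0.9999. The same threshold called 0% of the 14539 genes tested. At an unadjusted p of 0.05 the members again gave 0 genes, against 2.57% of all genes tested, or 374 genes. DESeq2 called 0 members and 4 of all genes (0.0275%), and gave 0 members and 1.81% of genes at an unadjusted p of 0.05. Without WT replicate 3, edgeR called 0 members and 0.0206% of genes, and with no filter on low levels 0 members and 0.155% of genes. In none of the 22 members did the 3 libraries labelled Tet2 cKO all lie above, or all below, the 3 libraries labelled WT, a separation found in 6.95% of all genes tested. The largest differences were 0.16 on the log2 scale for Cacna2d3 and -0.17 for Cacna2d4.

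Tet2 itself did not follow the labels. It stood at 4.47, 4.02 and 3.96 FPKM in the libraries labelled Tet2 cKO, against 3.45, 3.46 and 3.71 FPKM in the libraries labelled WT, so that all 3 libraries labelled Tet2 cKO were higher. The log2 difference was 0.22 (95% interval 0.05 to 0.39, edgeR unadjusted p = 0.0174, adjusted p = 0.9999). A count over the whole gene does not show whether particular exons are missing. Genotypes are therefore given below as the libraries are labelled, and every direction rests on those labels.

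Library totals ran from 17441429 to 17917987 counts in cKO-labelled libraries and from 16089676 to 17743639 counts in WT-labelled libraries. Mitochondrial genes took 5.43% to 6.44% of counts in cKO-labelled libraries and 6.25% to 7.66% in WT-labelled libraries. WT replicate 3 stood apart, with a chi-square per gene of 8.44 to 15.9 against every other library, while all other pairs lay between 3.53 and 8.33. The value of 8.44 was with Tet2 cKO replicate 1, whose pairs with the remaining libraries lay at 6.95 to 8.33. Pairs without either library lay at 3.53 to 5.83. All 6 pan-habenula markers (Pou4f1, Gpr151, Nwd2, Tac2, Etv1 and Irx2) were detected in every library, and all 6 were lowest in WT replicate 3. Their summed level was 140 to 201 FPKM in the libraries labelled Tet2 cKO and 111 to 215 FPKM in those labelled WT. Of 12 medial habenula markers, 9 were lowest in WT replicate 3 and 1 was highest there. Of 8 lateral habenula markers, 3 were lowest and 4 highest there. The medial markers summed to 337 to 381 FPKM in cKO-labelled libraries and 402 to 407 FPKM in WT-labelled libraries. Calb2 made up most of each sum, at 251 to 274 FPKM in cKO-labelled libraries and 273 to 332 FPKM in WT-labelled libraries. The mean log2(FPKM + 1) of the 12 medial markers overlapped between labels. It was 3.36 to 3.64 in cKO-labelled libraries and 3.155 to 3.85 in WT-labelled libraries, lowest in WT replicate 3. The lateral markers summed to 437 to 472 FPKM in cKO-labelled libraries and 406 to 537 FPKM in WT-labelled libraries. WT replicate 3 gave the highest lateral sum. Markers of thalamic neurons were also present, summing to 513 to 567 FPKM in cKO-labelled libraries and 528 to 562 FPKM in WT-labelled libraries. In bulk tissue, fewer cells of a type and less RNA per cell cannot be told apart.

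Stretches before RefSeq starts of the members that the results turn on were unequal in CpG content, CpG being the dinucleotide on which TET enzymes act. Each sequence is the 250 bases before a RefSeq transcription start on GRCm38.p6, read 5′ to 3′ on the gene's strand, with every CpG in capitals. Those of Cacna1e, Cacna2d2, Cacnb3 and Scn10a lie inside the span that GENCODE gives the gene. Scn2b is shown as the member with the highest level, Cacna1e, Cacna2d2 and Cacnb3 as the members that varied most between libraries, and Scn10a as the member without a single count. The stretch of Scn2b is chr9:45117626-45117875 on the plus strand.
Scn2b: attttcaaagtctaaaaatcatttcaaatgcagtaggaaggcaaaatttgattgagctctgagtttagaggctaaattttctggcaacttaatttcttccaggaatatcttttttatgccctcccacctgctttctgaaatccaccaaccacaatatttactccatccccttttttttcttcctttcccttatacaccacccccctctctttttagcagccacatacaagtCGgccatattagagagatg
Cacna1e is given at chr1:154725921-154726170 on the minus strand. This is an internal start, as the 5′ end of the gene in GENCODE is at base 154884501.
Cacna1e: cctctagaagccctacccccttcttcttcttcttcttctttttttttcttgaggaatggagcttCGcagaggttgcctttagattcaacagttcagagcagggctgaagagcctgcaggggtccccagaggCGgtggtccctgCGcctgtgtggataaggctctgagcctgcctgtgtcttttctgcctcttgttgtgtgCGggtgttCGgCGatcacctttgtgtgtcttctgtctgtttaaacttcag
Cacna2d2 is given at chr9:107399630-107399879 on the plus strand.
Cacna2d2: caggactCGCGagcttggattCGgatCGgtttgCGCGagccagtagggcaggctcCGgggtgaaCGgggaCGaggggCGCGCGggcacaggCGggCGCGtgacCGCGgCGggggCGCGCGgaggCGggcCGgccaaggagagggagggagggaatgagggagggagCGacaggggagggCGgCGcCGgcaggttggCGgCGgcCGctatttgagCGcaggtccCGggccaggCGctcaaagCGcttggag
Cacnb3 has one RefSeq start at chr15:98632078-98632327 and another at chr15:98634517-98634766, both on the plus strand and printed in that order.
Cacnb3 upstream start: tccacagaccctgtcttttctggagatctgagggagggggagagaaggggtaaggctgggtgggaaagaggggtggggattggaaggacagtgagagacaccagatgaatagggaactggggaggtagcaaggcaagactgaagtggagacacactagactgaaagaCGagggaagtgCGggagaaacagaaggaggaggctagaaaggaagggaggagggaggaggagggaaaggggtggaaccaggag
Cacnb3 downstream start: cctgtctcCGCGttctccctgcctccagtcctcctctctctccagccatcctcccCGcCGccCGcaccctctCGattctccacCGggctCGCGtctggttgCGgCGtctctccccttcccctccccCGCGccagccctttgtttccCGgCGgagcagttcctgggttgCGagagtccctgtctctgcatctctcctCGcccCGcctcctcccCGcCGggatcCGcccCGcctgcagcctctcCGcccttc
Scn10a is given at chr9:119719033-119719282 on the minus strand.
Scn10a: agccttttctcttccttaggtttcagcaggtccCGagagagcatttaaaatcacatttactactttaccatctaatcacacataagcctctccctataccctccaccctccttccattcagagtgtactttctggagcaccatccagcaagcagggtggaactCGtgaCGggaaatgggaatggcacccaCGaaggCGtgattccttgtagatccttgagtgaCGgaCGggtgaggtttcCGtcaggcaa
The stretch shown for Cacna2d2 holds 34 CpG and that of the downstream Cacnb3 start 23, whereas Scn2b has 1, the upstream Cacnb3 start 2, Cacna1e 6 and Scn10a 8.

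RefSeq gave 34 promoter windows of 300 bases, from 250 before to 50 after the start, for 24 of the 28 members. Scn3a, Scn3b, Cacna1a and Cacna2d4 had none in that table. A window was counted as CpG-rich when its CpG were at least 0.6 of the number its base composition predicts and its GC content was at least 55%. Of the 24 members, 12 (50%) had such a window, against 32.7% of 27025 genes. The windows were uneven by role, with 10 of 13 calcium channel genes CpG-rich and 2 of 11 sodium channel genes, namely Scn8a and Scn4b, Nalcn being counted among the 11. None of the 6 members with a mean under 1 FPKM had a CpG-rich window. Scn2b, the member with the highest level, has 2 CpG in its whole window, against a median of 7 over all windows, while Cacna1d, at 4.36 FPKM, has 63. For 27 of the 34 windows the 40 bases after the start were found somewhere in a GENCODE transcript of the same gene. The upstream Cacnb3 start and the Scn10a start were not among the 27, while the internal Cacna1e start was. A match could lie anywhere in the transcript, so it does not show that a transcript begins there.

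**Figure D1:**
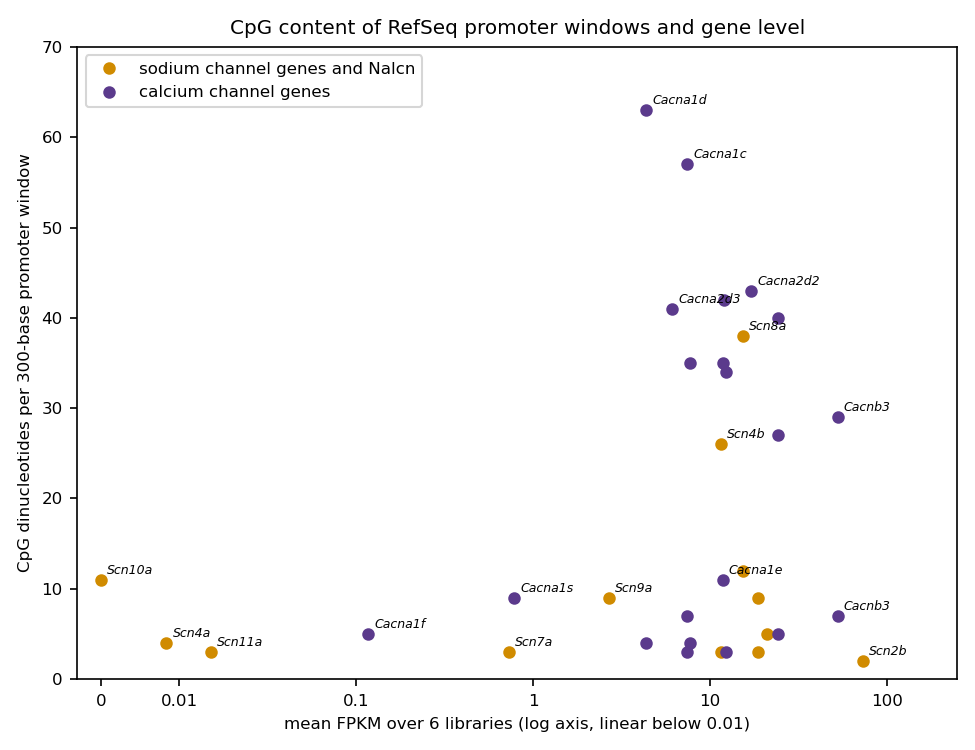
CpG dinucleotides in each 300-base RefSeq promoter window (vertical axis) against the mean level of the gene over the 6 libraries in FPKM (horizontal log axis, linear below 0.01), with 1 point per window, orange for sodium channel genes and Nalcn and purple for calcium channel genes. Scn2b has the highest level of 73.6 FPKM with 2 CpG, Cacna1d has 63 CpG at 4.36 FPKM, and the 6 genes under 1 FPKM all lie at 11 CpG or fewer.

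Short motifs were looked for on both strands of these windows, as letters only. GGGCGG, the core of the GC box, was present in 14 of 34 member windows, against 35.7% of all 32851 windows. TATAAA was present in 2, belonging to Cacna1d and Scn2a, against 13.6% of all. TGACGTCA, CACGTG, TTCAGCACC, GGACAGCGC and TAATTAAT were in none of the member windows, against 1.79%, 7.15%, 0.371%, 0.405% and 0.852% of all windows in that order. Such matches describe the letters in these windows only.

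In levels per length, the sodium channel beta subunit gene Scn2b led all members with a mean of 73.6 FPKM over the 6 libraries, rank 464 of all genes counted. Cacnb3 followed at 52.8 FPKM, rank 752. Every library placed Scn2b above Cacnb3, and Cacnb3 above all other members. The next 6, from Scn3b at 26.4 FPKM down through Cacnb4, Scn1a, Scn2a and Cacna2d2 to Scn8a at 15.3 FPKM, overlapped each with its neighbour in the range over libraries. Cacnb1 at 12.3 FPKM opened another run of overlapping neighbours that passed through Cacna2d1, Cacna1b, Cacna1e, Scn4b and Nalcn to Cacna1a at 9.19 FPKM. A further run went from Cacnb2 at 7.70 FPKM through Scn3a and Cacna1c to Cacna2d3 at 6.14 FPKM. Cacna1d at 4.36 FPKM stood alone, and Scn9a at 2.67 FPKM overlapped Cacna2d4 at 2.32 FPKM.

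**Figure D2:**
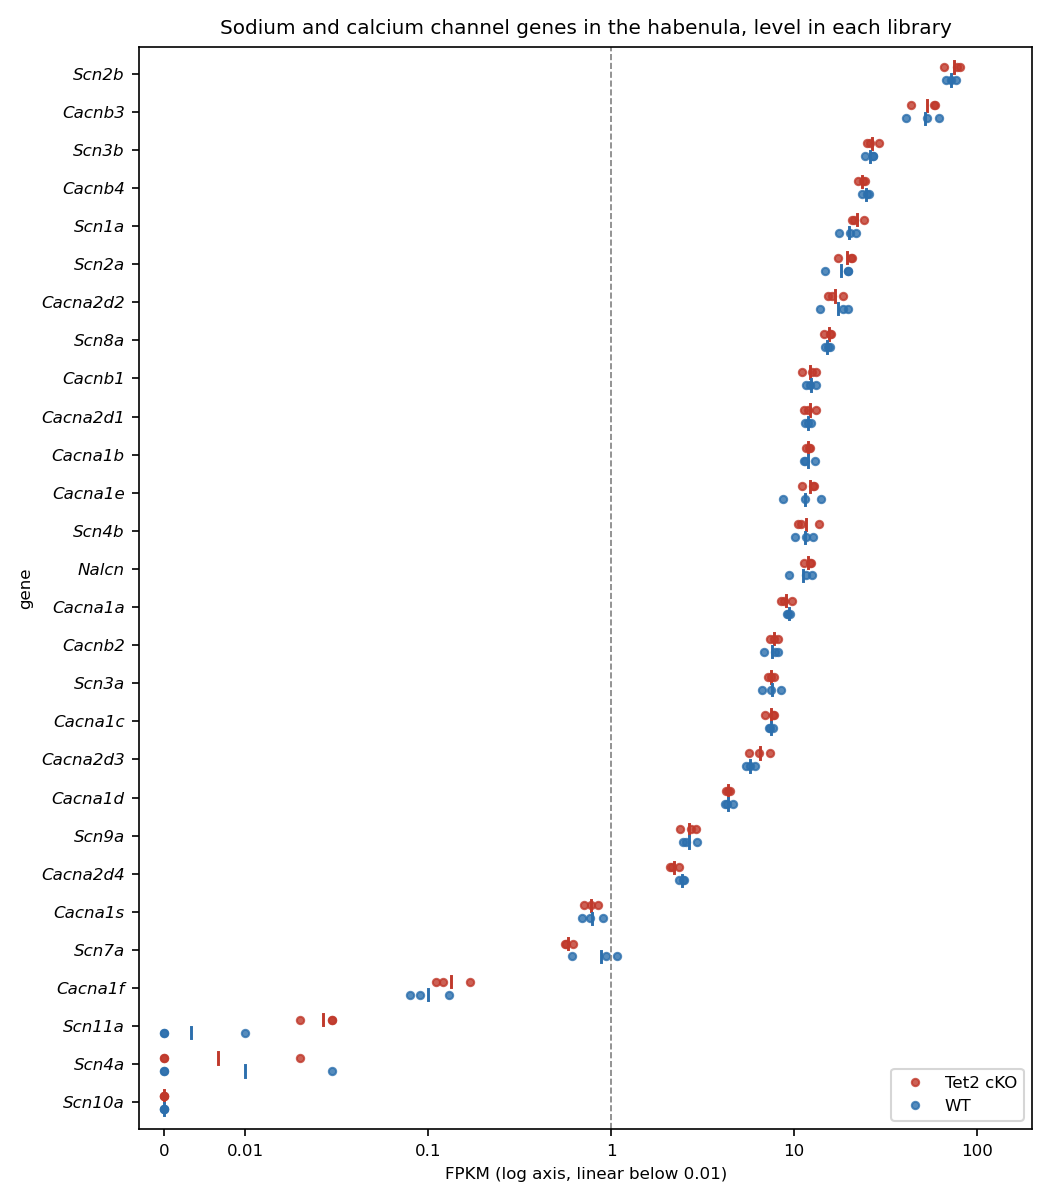
Level of each of the 28 members in FPKM (horizontal log axis, linear below 0.01), with 1 point per library, red for libraries labelled Tet2 cKO above blue for those labelled WT, and a vertical bar at each group mean. The dashed line marks the 1 FPKM filter, the 6 members that were not tested have their mean over all libraries below it, and red and blue points overlap in all 22 members above it.

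Among sodium channel alpha subunits, 5 of 9 were tested and all 5 overlapped between genotypes. Scn1a encodes Nav1.1, best known from fast-spiking inhibitory neurons, and lies at chr2:66270778-66440840 on the minus strand of GRCm38. It stood at 20.7, 24.2 and 21.3 FPKM in the libraries labelled Tet2 cKO, against 21.9, 20.3 and 17.5 FPKM in those labelled WT. The highest library was Tet2 cKO replicate 2 and the lowest WT replicate 3, and the log2 difference was 0.14 (SE 0.0971, edgeR unadjusted p = 0.182). Scn2a, which encodes Nav1.2 of excitatory neurons, stood at 17.4, 20.6 and 20.6 FPKM in cKO-labelled libraries and at 19.8, 19.6 and 14.9 FPKM in WT-labelled libraries. Its low values were in WT replicate 3 and Tet2 cKO replicate 1, and the log2 difference was 0.10 (SE 0.116), or -0.01 without WT replicate 3. Scn8a encodes Nav1.6, the main sodium channel of mature axon initial segments and nodes of Ranvier. Its libraries labelled Tet2 cKO held 14.6, 16.0 and 15.8 FPKM, against 15.3, 15.7 and 14.7 FPKM in WT-labelled libraries. Its highest library was 1.10 times its lowest, the smallest span of the 22 tested members, and its log2 difference was 0.01 (95% interval -0.14 to 0.16).

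Scn3a, which encodes Nav1.3 and is strongest in the embryonic brain, stood at 7.52, 7.19 and 7.79 FPKM in the libraries labelled Tet2 cKO, against 7.50, 8.47 and 6.73 FPKM in those labelled WT. Both the highest and the lowest library carried the WT label. Scn9a, which encodes Nav1.7, known from pain-sensing neurons, stood at 2.74, 2.37 and 2.92 FPKM in cKO-labelled libraries and at 2.56, 2.48 and 2.96 FPKM in WT-labelled libraries. The log2 differences were -0.02 for Scn3a and -0.00 for Scn9a, and the sign of Scn9a turned with RLE factors or library totals in place of TMM factors. Exons of Scn9a overlap the opposite-strand gene Gm13629, which averaged 7.09 FPKM in cKO-labelled libraries and 6.19 FPKM in WT-labelled libraries. Since no source used here gives the strand setting of the counting, reads of such a pair cannot be told apart. The same holds for Cacna1a, Cacna1d, Cacna1s, Cacna2d2, Cacnb1, Cacnb2 and Cacnb4, whose overlapping partners averaged at most 1.85 FPKM in either group.

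The alpha subunit transcripts were divided as follows. Scn1a took 32.5% ± 1.62 of the summed FPKM of the 9 genes in the libraries labelled Tet2 cKO and 30.9% ± 1.12 in those labelled WT (SD, n = 3 each). Scn2a took 28.8% ± 1.29 in cKO-labelled libraries and 27.996% ± 1.81 in WT-labelled libraries. Scn8a took 22.8% ± 0.206 in cKO-labelled libraries and 23.8% ± 1.65 in WT-labelled libraries. For Scn3a the shares were 11.1% ± 0.870 in cKO-labelled libraries and 11.8% ± 0.770 in WT-labelled libraries. The 9 genes together summed to 67.8 ± 3.86 FPKM in cKO-labelled libraries and 64.4 ± 6.03 FPKM in WT-labelled libraries. Scn3a, Scn2a, Scn1a, Scn9a and Scn7a sit in this order on chromosome 2. Scn3a and Scn2a lie 53.1 kb apart, Scn1a and Scn9a 39.2 kb and Scn9a and Scn7a 38.5 kb, while 8 other genes separate Scn2a from Scn1a. Members of this cluster ranged from 0.73 FPKM for Scn7a to 20.98 FPKM for Scn1a.

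The other 4 alpha subunit genes fell under the filter. Scn10a and Scn11a encode Nav1.8 and Nav1.9 of peripheral pain-sensing neurons. Scn10a had 0 counts in all 6 libraries, which allows up to 0.0234 FPKM in the shallowest library, at 3 counts. Scn11a had 3, 3 and 2 counts in cKO-labelled libraries, against 0, 1 and 0 in WT-labelled libraries. The groups did not overlap, but every value was at or below the floor of 3 counts, so no fold is given. Scn4a, the skeletal muscle sodium channel, had 0, 2 and 0 counts in cKO-labelled libraries and 0, 3 and 0 in WT-labelled libraries.

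Scn7a encodes Nax, a relative of the voltage-gated channels that responds to extracellular sodium. Counts were 73, 74 and 81 in cKO-labelled libraries, against 137, 111 and 80 in WT-labelled libraries. The 2 higher WT-labelled libraries lay above all others, while WT replicate 3 lay within the range of the Tet2 cKO label. Per length this was 0.57, 0.56 and 0.62 FPKM in cKO-labelled libraries and 1.08, 0.94 and 0.61 FPKM in WT-labelled libraries. With no filter on low levels, edgeR gave a log2 difference of -0.59 (SE 0.205, unadjusted p = 0.0049, adjusted p = 0.651), where 3.5% of 31689 genes reached an unadjusted p of 0.05. It did not pass the adjusted threshold. The 7 ependymal markers summed to 46.1, 51.3 and 42.3 FPKM in the libraries labelled Tet2 cKO. In those labelled WT the sums were 56.6, 59.7 and 70.9 FPKM, without overlap between labels. The 10 choroid plexus markers summed to 824, 170 and 283 FPKM in cKO-labelled libraries and 1403, 837 and 449 FPKM in WT-labelled libraries. Nearly all of each sum was Ttr, at 799, 158 and 269 FPKM in cKO-labelled libraries and 1347, 802 and 430.5 FPKM in WT-labelled libraries. None of these markers was at 0 in all libraries, and their part in the level of Scn7a was not tested.

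All 3 sodium channel beta subunit genes of the list were well expressed, and none was called. Scn2b encodes beta2, which binds the alpha subunit through a disulphide bond, and lies at chr9:45117782-45130070 on the plus strand. It stood at 66.3, 77.6 and 80.8 FPKM in the libraries labelled Tet2 cKO, against 77.0, 71.9 and 68.0 FPKM in those labelled WT. Tet2 cKO replicate 1 was the lowest library and Tet2 cKO replicate 3 the highest, so the WT-labelled range lay inside the other. On the log2 scale the difference was 0.04 (SE 0.0886, edgeR unadjusted p = 0.636). Scn3b, which encodes the non-covalently bound beta3, stood at 25.2, 25.9 and 29.1 FPKM in cKO-labelled libraries and 27.0, 27.1 and 24.4 FPKM in WT-labelled libraries. Scn4b encodes beta4, linked to resurgent sodium current, and its levels were 10.5, 13.7 and 10.9 FPKM in cKO-labelled libraries and 11.7, 12.6 and 10.1 FPKM in WT-labelled libraries. Tet2 cKO replicate 2 was the highest library of Scn4b, and all other libraries lay within 10.1 to 12.6 FPKM. Scn2b and Scn4b are neighbours on chromosome 9, 8.32 kb apart, and their promoter windows hold 2 CpG for Scn2b and 26 for Scn4b. Scn2b took 66.1% ± 0.962 of the summed FPKM of the 3 genes in the libraries labelled Tet2 cKO and 65.8% ± 1.195 in those labelled WT (SD, n = 3 each).

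Nalcn encodes a channel that is not gated like its relatives and passes the background sodium leak that helps to set the resting potential. It stood at 11.3, 12.3 and 12.4 FPKM in the libraries labelled Tet2 cKO, against 11.6, 12.5 and 9.36 FPKM in those labelled WT. WT replicate 3 was lowest and the other 5 libraries lay between 11.3 and 12.5 FPKM. Between labels the log2 difference was 0.10 (SE 0.102, edgeR unadjusted p = 0.354), and it was -0.00 without WT replicate 3.

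Of the calcium channel alpha1 subunits, 5 of 7 were tested and none was called. Cacna1e encodes the R-type channel Cav2.3 and lies at chr1:154390731-154884501 on the minus strand. It stood at 12.7, 11.1 and 12.8 FPKM in the libraries labelled Tet2 cKO, against 11.6, 14.03 and 8.68 FPKM in those labelled WT. Both extremes carried the WT label, and its highest library was 1.62 times its lowest, the widest span of the 22 tested members. Its log2 difference was 0.09 (95% interval -0.23 to 0.41) with all libraries and -0.06 without WT replicate 3. Cacna1b encodes the N-type channel of presynaptic terminals, and stood at 11.6, 12.3 and 12.03 FPKM in cKO-labelled libraries and 11.5, 11.3 and 13.0 FPKM in WT-labelled libraries. Here WT replicate 3 was the highest library instead, and the log2 difference of -0.01 turned positive with library totals in place of TMM factors. Cacna1a encodes the P/Q-type channel, also presynaptic, and stood at 8.51, 9.73 and 8.84 FPKM in cKO-labelled libraries and 9.32, 9.18 and 9.55 FPKM in WT-labelled libraries. All 3 libraries labelled WT lay within the range of those labelled Tet2 cKO, and the log2 difference was -0.06 (SE 0.0752).

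Cacna1c and Cacna1d encode the L-type channels Cav1.2 and Cav1.3 of neurons, the second of which opens at lower voltages and supports pacemaking. Cacna1c stood at 7.74, 7.71 and 6.92 FPKM in the libraries labelled Tet2 cKO, against 7.44, 7.70 and 7.34 FPKM in those labelled WT. Cacna1d stood at 4.35, 4.24 and 4.47 FPKM in cKO-labelled libraries and 4.19, 4.63 and 4.28 FPKM in WT-labelled libraries. Neither gene had a library more than 1.12 times another, and the log2 differences were -0.02 for Cacna1c and -0.01 for Cacna1d. The remaining L-type genes were low. Cacna1s, the skeletal muscle channel, had 81, 91 and 100 counts in cKO-labelled libraries and 87, 73 and 105 in WT-labelled libraries. Cacna1f, the channel of photoreceptor terminals, had 27, 18 and 20 counts in cKO-labelled libraries and 20, 11 and 14 in WT-labelled libraries. Both overlapped between labels. The 6 skeletal muscle markers summed to 2.92 to 3.33 FPKM in cKO-labelled libraries and 2.73 to 3.46 FPKM in WT-labelled libraries. The 8 pineal and photoreceptor markers summed to 5.23 to 5.62 FPKM in cKO-labelled libraries and 4.85 to 6.05 FPKM in WT-labelled libraries. Most of that was Rom1, at 4.09 to 4.67 FPKM in cKO-labelled libraries and 3.85 to 5.09 FPKM in WT-labelled libraries. Gngt1 was at 0 in all 6 libraries. The part of either list in the counts of Cacna1s and Cacna1f was not tested.

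In shares of the summed FPKM of the 7 alpha1 genes, Cacna1e and Cacna1b led with values that overlapped. Cacna1e took 26.6% ± 2.17 in the libraries labelled Tet2 cKO and 25.0% ± 4.87 in those labelled WT (SD, n = 3 each). Cacna1b took 26.0% ± 0.730 in cKO-labelled libraries and 26.3% ± 3.00 in WT-labelled libraries. In WT replicate 3 the share of Cacna1b reached 29.6% and that of Cacna1e was 19.8%, whereas WT replicate 2 had 23.8% and 29.5% for the same genes. The sum of the 7 genes was 45.9 ± 0.136 FPKM in cKO-labelled libraries and 45.5 ± 1.97 FPKM in WT-labelled libraries.

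The 4 alpha2delta genes, all tested, included both the highest and the lowest log2 difference of the list. Cacna2d3 at chr14:28904943-29721864 stood at 5.68, 7.37 and 6.43 FPKM in the libraries labelled Tet2 cKO, against 6.11, 5.46 and 5.76 FPKM in those labelled WT. Tet2 cKO replicates 2 and 3 lay above all WT-labelled libraries, while replicate 1 lay among them. The log2 difference was 0.16 (95% interval -0.07 to 0.40, edgeR unadjusted p = 0.158). Cacna2d4, known from photoreceptor synapses, lies at chr6:119236526-119352407 and stood at 2.35, 2.09 and 2.15 FPKM in cKO-labelled libraries and 2.49, 2.52 and 2.34 FPKM in WT-labelled libraries. The groups met only between Tet2 cKO replicate 1 and WT replicate 3, and the log2 difference of -0.17 (95% interval -0.37 to 0.03) had the smallest unadjusted p of the members, 0.0943 by edgeR. Cacna2d4 lies 40.1 kb from Cacna1c.

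Cacna2d1 and Cacna2d2 encode the alpha2delta subunits that bind gabapentin. Cacna2d2 lies at chr9:107399612-107529343 and stood at 16.2, 15.4 and 18.6 FPKM in the libraries labelled Tet2 cKO, against 18.6, 19.7 and 13.9 FPKM in those labelled WT. WT replicate 3 was lowest and WT replicate 2 highest. The log2 difference was -0.06 (SE 0.124, edgeR unadjusted p = 0.633), and without WT replicate 3 it was -0.19 (edgeR unadjusted p = 0.0383, adjusted p = 0.809), in a comparison where 5.95% of all genes tested reached an unadjusted p of 0.05. Cacna2d1 stood between 11.4 and 13.1 FPKM in cKO-labelled libraries (2598, 2918 and 2527 counts) and between 11.5 and 12.4 FPKM in WT-labelled libraries (2577, 2476 and 2533 counts). Its WT-labelled range lay inside the other, and its log2 difference was 0.02. Cacna2d2 took 44.5% ± 3.85 of the class sum in cKO-labelled libraries and 46.0% ± 3.99 in WT-labelled libraries, and Cacna2d1 took 32.4% ± 2.60 in cKO-labelled libraries and 32.0% ± 2.04 in WT-labelled libraries (SD, n = 3 each).

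The 4 calcium channel beta subunit genes, all tested, had log2 differences between -0.07 and 0.03. Cacnb3 at chr15:98630840-98644529 stood at 58.3, 43.6 and 58.9 FPKM in the libraries labelled Tet2 cKO, against 53.2, 61.9 and 41.1 FPKM in those labelled WT. Each label had 1 low library, Tet2 cKO replicate 2 and WT replicate 3, and its highest library was 1.51 times its lowest. With all libraries the log2 difference was 0.03 (SE 0.150), the widest standard error of the members, and -0.10 without WT replicate 3. Cacnb4 stood at 23.9, 24.6 and 22.5 FPKM in cKO-labelled libraries and 25.0, 25.6 and 23.4 FPKM in WT-labelled libraries, with a log2 difference of -0.07 (SE 0.0687). Cacnb1 levels were 11.1, 12.6 and 13.2 FPKM in cKO-labelled libraries and 12.2, 13.2 and 11.6 FPKM in WT-labelled libraries. Cacnb2 levels were 7.41, 8.13 and 7.81 FPKM in cKO-labelled libraries and 7.89, 8.13 and 6.85 FPKM in WT-labelled libraries. In all 3 genes the labels overlapped. Cacnb3 supplied 54.8% ± 5.02 of the class sum in the libraries labelled Tet2 cKO and 53.5% ± 3.70 in those labelled WT (SD, n = 3 each).

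**Figure D3:**
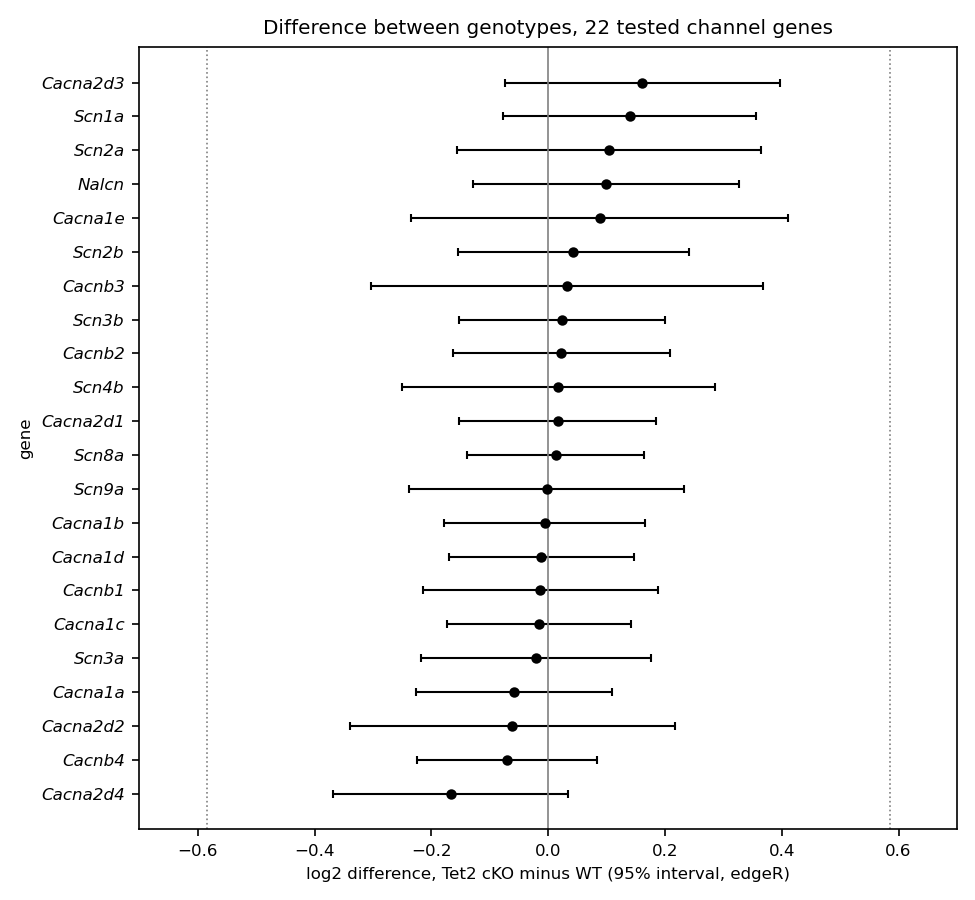
Log2 difference of the 22 tested members, libraries labelled Tet2 cKO minus those labelled WT, from edgeR (points) with 95% intervals (bars), ordered by size, with the dotted lines at a 1.5-fold difference. Every interval spans 0 and lies inside the dotted lines, between -0.37 and 0.41.

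Taking the 22 tested members together, 12 log2 differences were above 0 and 10 below, with a median of 0.01. Over all 14539 genes tested, 50.9% were below 0 and the median was -0.00. The median size of the difference, regardless of sign, was 0.0279 in members and 0.0641 over all genes tested. All 22 members differed by less than 0.2 on the log2 scale, as did 85.5% of all genes tested. Standard errors of the members ran from 0.0678 to 0.150, and the 95% intervals reached from a ratio of 0.775 to a ratio of 1.33. The sign turned in at least 1 of 16 other settings for 17 of the 22 members. Scn1a and Cacna2d3 stayed above 0, and Cacna1a, Cacna2d4 and Cacnb4 below 0, in all 16.

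The spread that the members did show ran between libraries within a label. The counts in this paragraph were made after the values were seen. WT replicate 3 was the lowest of the 6 libraries in 10 of 22 members, and in 29% of all genes tested. WT replicate 2 was the highest in 10 of 22, and in 17.8% of all genes tested. Against the mean of WT replicates 1 and 2, WT replicate 3 was lower in 18 of 22 members with a median log2 difference of -0.12, while over all genes tested it was lower in 50.6% with a median of -0.00. The widest gaps were -0.55 for Cacna1e, -0.48 for Cacnb3, -0.45 for Cacna2d2, -0.40 for Scn2a and -0.36 for Nalcn. Scn9a at 0.24 and Cacna1b at 0.19 lay the other way.

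**Figure D4:**
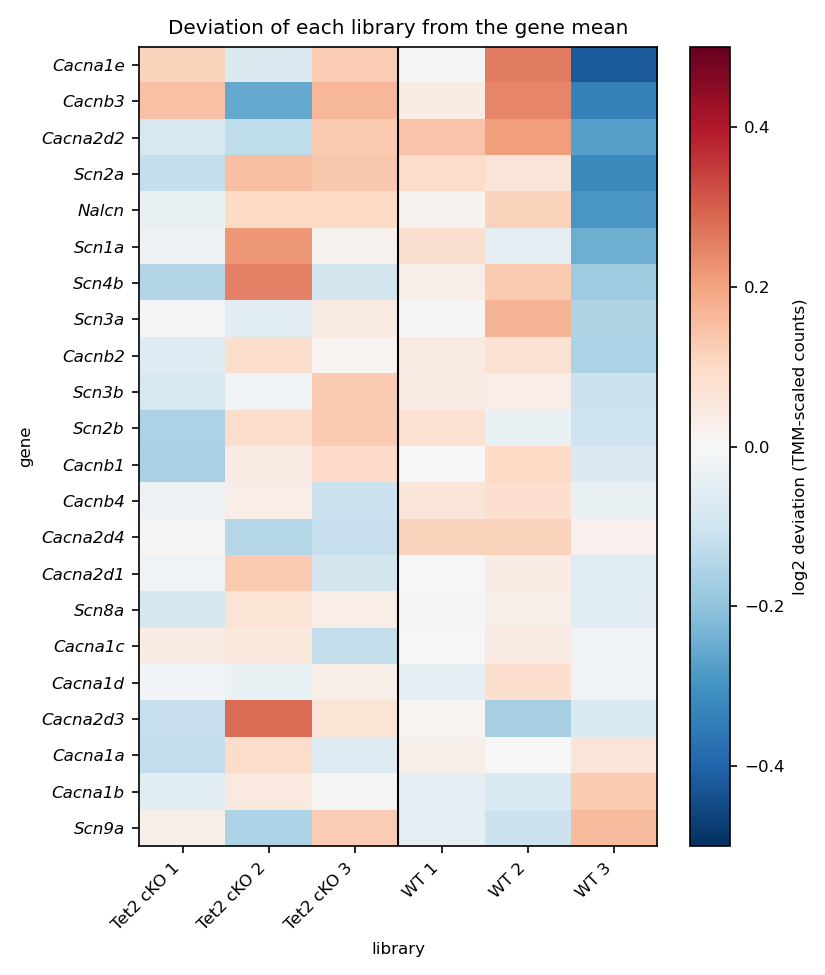
Deviation of each library from the mean of the gene on the log2 scale (colour, from TMM-scaled counts), for the 22 tested members (rows) and the 6 libraries (columns, Tet2 cKO left of WT). The column of WT replicate 3 is blue, or low, in most rows, strongest in Cacna1e, Cacnb3 and Scn2a, and red, or high, most clearly in Scn9a and Cacna1b.

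Member levels were also set beside the pan-habenula markers, library by library. The marker score, the mean log2(FPKM + 1) of the 6 markers, was 4.81, 4.38 and 4.71 in the libraries labelled Tet2 cKO, against 4.65, 4.93 and 4.05 in those labelled WT. The score of 10 pan-neuronal markers lay between 6.74 and 6.84 in all libraries. Correlations of the log2(FPKM + 1) levels of the 22 members with both scores, 44 in all, were computed over the 6 libraries after the values were seen, with exact two-sided permutation tests and Benjamini-Hochberg adjustment over the 44. Cacna1e followed the pan-habenula score with Pearson r = 0.976 (exact permutation p = 0.00278, adjusted p = 0.0611) and Spearman rho = 0.943 (exact permutation p = 0.0167, adjusted p = 0.244). Without the libraries farthest from the median score, Tet2 cKO replicate 2 and WT replicate 3, its r was 0.916. Cacnb3 gave r = 0.964 (exact permutation p = 0.00278, adjusted p = 0.0611) and rho = 0.943 (exact permutation p = 0.0167, adjusted p = 0.244), and r = 0.865 without those libraries.

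None of the 44 relations passed after adjustment. An exact permutation over 6 libraries has a smallest possible p. After adjustment over 44 relations, that p is too large for any relation to pass on its own, however strong. The adjusted values therefore cannot decide whether a single member followed the score. Scn3a gave r = 0.915 (exact permutation adjusted p = 0.107) and 0.790 without the farthest libraries. Cacna1b ran the opposite way at r = -0.936 (exact permutation adjusted p = 0.107), and this rested on those libraries, since r was -0.491 without them. Cacna2d2 likewise gave r = 0.853 with all 6 libraries and 0.121 without them. An r of at least 0.9 with the pan-habenula score was found in 3 of 22 members and in 1.89% of 14533 genes. With the pan-neuronal score it was found in 0 of 22 members and in 1.82% of genes. Over all strengths, r with the pan-habenula score was positive in 18 of 22 members, with a median of 0.325, against 53.9% of genes and a median of 0.0732. With the pan-neuronal score r was positive in 3 of 22 members, with a median of -0.555, against 47.5% of genes and a median of -0.0518. These members share libraries and are not independent of each other, and 3 libraries a label are too few for a correlation within a label. The score covers the 6 pan-habenula markers only, and the part of habenular content in the levels of Cacna1e and Cacnb3 was not tested further.

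**Figure D5:**
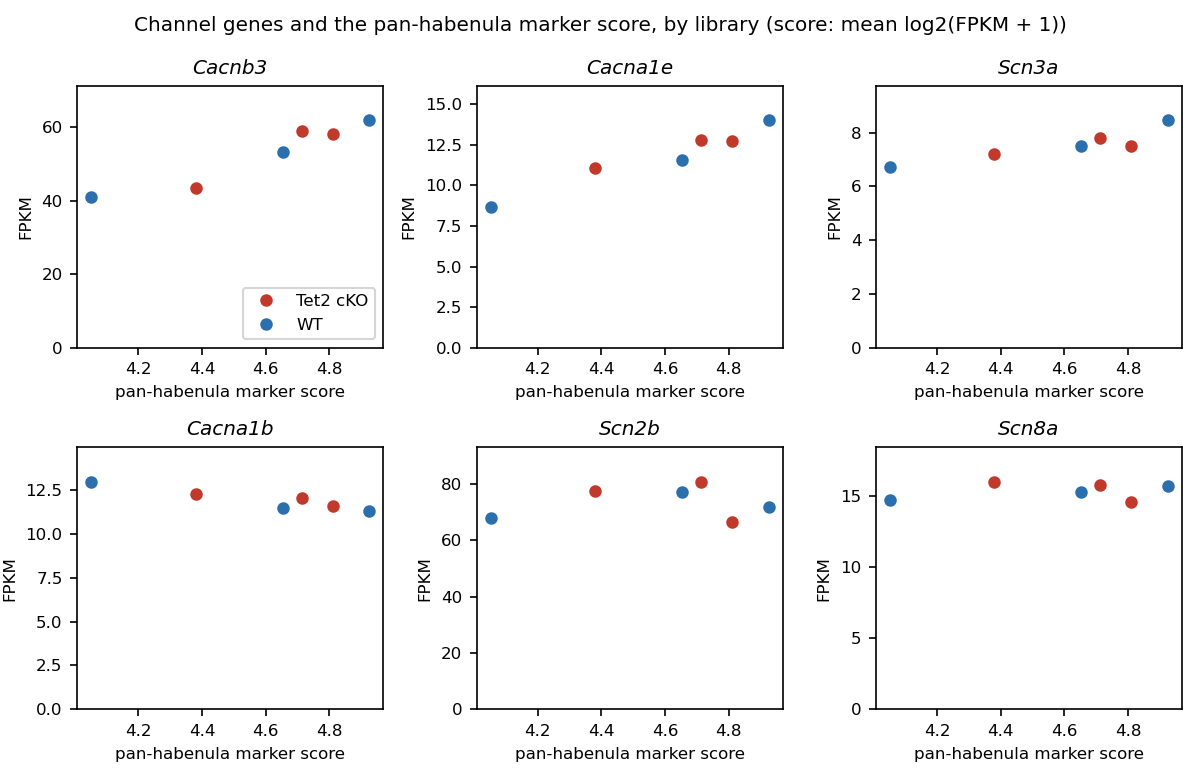
Level in FPKM (vertical axes, from 0) of 6 members against the pan-habenula marker score (horizontal axes, mean log2(FPKM + 1) of 6 markers), with 1 point per library, red for those labelled Tet2 cKO and blue for those labelled WT. Cacnb3, Cacna1e and Scn3a are lowest at the lowest score of 4.05, in WT replicate 3, and highest at the highest score of 4.93, in WT replicate 2, while Scn2b and Scn8a show no such order.

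Genes that work with these channels were examined as a list of 49, of which 42 passed the filter. None of the 42 was called (edgeR adjusted p = 0.9999 each), against 0% of all genes tested. None had an edgeR unadjusted p under 0.05, against 2.57% of all genes tested, and none separated the labels, against 6.95%. Their log2 differences were above 0 in 19 and below 0 in 23, with a median of -0.01, where 50.9% of all genes tested were below 0. Above 0, the smallest unadjusted p-values belonged to Stac3 (log2 difference 0.27, edgeR unadjusted p = 0.175), an adaptor of the muscle calcium channel, and Cabp1 (0.15, edgeR unadjusted p = 0.193), a calcium-binding modulator of calcium channels. Rem2 (0.24, edgeR unadjusted p = 0.289), a small GTPase that inhibits calcium channels, and Ank2 (0.08, edgeR unadjusted p = 0.320), the scaffold ankyrin-B, came next. Below 0 they belonged to Cacng4 (-0.12, edgeR unadjusted p = 0.157), a transmembrane gamma subunit relative that escorts AMPA receptors, and Rimbp2 (-0.09, edgeR unadjusted p = 0.333), which ties calcium channels to release sites. Tmem28 (-0.08, edgeR unadjusted p = 0.407), an accessory of the Nalcn complex also known as Nalf2, followed.

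The T-type channel genes, low-voltage calcium channels tied to burst firing, complete the alpha1 family and are given here outside the naming rule, with their values already seen. Cacna1g averaged 28.7 ± 1.48 FPKM in the libraries labelled Tet2 cKO and 29.2 ± 1.18 FPKM in those labelled WT (SD, n = 3 each), above each of the 7 alpha1 members in level. Cacna1i averaged 5.83 ± 1.05 FPKM in cKO-labelled libraries and 6.15 ± 0.733 FPKM in WT-labelled libraries. Cacna1h averaged 1.61 ± 0.0608 FPKM in cKO-labelled libraries and 1.75 ± 0.536 FPKM in WT-labelled libraries. Their log2 differences were -0.03, -0.09 and -0.12 in that order, and none was called by edgeR. Unc79, Unc80 and Fam155a, the other parts of the Nalcn complex, gave -0.07, -0.00 and -0.02.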

How the data were processed

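Total RNA of the habenula was sequenced in 3 libraries labelled Tet2 cKO and 3 labelled WT. The deposited table gives raw counts per gene, whole numbers per the file headers and values, and FPKM made by the authors, which equal the deposited count scaled by exon length and library total within 0.0051 for 100% of values. Build mm10, HISAT2 2.0.1, SAMtools 0.1.19, cutadapt 1.9.1 and FastQC 0.10.1 are named, without roles, per the submitters' processing notes. The sources used here do not give the read counter, its annotation or its strand setting. All 6 sample columns of each measure were mapped by name, and 0 were left unused.

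Counts were tested with edgeR 4.0.16 (quasi-likelihood, TMM factors, two-sided, no covariate) in R 4.3.3 on 14539 genes whose mean FPKM reached 1, with Benjamini-Hochberg adjustment over all of them. Levels are FPKM, SD are over 3 libraries and intervals are 95% intervals. Alternatives were RLE, upper-quartile and library-total scaling, DESeq2 1.42.0, no filter, a filter of 0.1 FPKM, limma 3.58.1 on log2(FPKM + 1) and log2(FPKM + 0.1) of the deposited FPKM, limma-voom with library weights, each library left out, and a replicate block. The common biological coefficient of variation was 10.4%. Counts of 14539 genes were simulated for this comparison, 200 of them changed. Libraries of a label shared their means, and the dispersion followed the level of the gene only. On these counts edgeR recovered 60% of 1.5-fold, 93.8% of 2-fold and 100% of 4-fold changes, and 6.21% of its 177 calls were false.

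Members, partner genes and marker lists were chosen with earlier results of these data known. All members are named, with values per library for those of at least 1 FPKM or with groups apart. Of the partner genes, those with groups apart and the 4 smallest unadjusted p-values in each direction are named. The values of 1 gene named by this rule are not reported here. Gene positions are those of GENCODE mouse release 21 (GRCm38), joined by gene identifier, since none of the 28 members starts at the same base in the deposited table. Promoters are from RefSeq (GRCm38.p6), matched by symbol. Limits from 0 counts cover counting error only.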

Additional observations from a re-analysis of the deposited data

How the results depend on the processing

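No member and no partner gene was called in any of the 16 alternative settings, and the median log2 difference of the members stayed between -0.02 and 0.04. Over all genes, DESeq2 called 4, no filter 49, the filter of 0.1 FPKM 2 and limma-voom with library weights 2. Leaving out 1 library each gave 0 to 3 calls over all genes, 1 without WT replicate 2 and 3 without WT replicate 3. The number of members at an unadjusted p under 0.05 was 1 with no filter and 1 with the filter of 0.1 FPKM (Scn7a in both, edgeR adjusted p 0.651 and 0.99997), and 1 with limma-voom (Cacna2d4, limma unadjusted p = 0.0247 and adjusted p = 0.663, the lowest of its settings). It was 0 to 1 on leaving out 1 library, the 1 being Cacna2d3 without Tet2 cKO replicate 1 (edgeR unadjusted p = 0.0335) and Cacna2d2 without WT replicate 3 (edgeR unadjusted p = 0.0383).

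Signs near 0 were not stable. Leaving out 1 library gave log2 differences of -0.00911 to 0.185 for Scn2a, -0.0876 to 0.0618 for Scn3a, -0.0136 to 0.0567 for Scn8a, -0.0680 to 0.0896 for Scn9a, -0.0118 to 0.127 for Scn2b and -0.0381 to 0.0686 for Scn3b. It gave -0.112 to 0.0919 for Scn4b, -0.00173 to 0.183 for Nalcn, -0.0474 to 0.0703 for Cacna1b, -0.0411 to 0.0380 for Cacna1c, -0.0387 to 0.0262 for Cacna1d and -0.0647 to 0.257 for Cacna1e. For the rest it gave -0.0417 to 0.0647 for Cacna2d1, -0.188 to 0.0305 for Cacna2d2, -0.0661 to 0.0600 for Cacnb1, -0.0389 to 0.0652 for Cacnb2 and -0.102 to 0.169 for Cacnb3. With limma-voom the sign turned for Scn9a (0.0673), Scn4b (-0.0373), Cacna1b (0.0518), Cacna1e (-0.00238), Cacna2d1 (-0.0142), Cacnb2 (-0.0170) and Cacnb3 (-0.0614). Scn9a also turned to 0.000921 with RLE factors, 0.00629 with library totals, 0.000919 with DESeq2, 0.00233 with no filter, 0.000071 with the filter of 0.1 FPKM, 0.00339 with limma on log2(FPKM + 1) and 0.00421 on log2(FPKM + 0.1). Cacna1b turned to 0.00197 with library totals, 0.00462 with limma on log2(FPKM + 1) and 0.00513 on log2(FPKM + 0.1). The cause was not tested.

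Libraries of the same replicate number correlated in their deviations at 0.00171, 0.0975 and -0.0961, and those of different numbers at -0.139 to 0.118. The labels do not say whether the numbers pair the libraries, and 3 libraries a label are too few for these values to decide it. With the replicate number as a block, edgeR called 0 members and 0 of all genes, and the median of the members was 0.01. With 3 libraries a label, 60% of 1.5-fold changes were recovered in simulated counts. No library was made to stand apart there, so recovery with WT replicate 3 apart was not simulated. The spread between libraries in the data was 10.4%, and members under 1 FPKM were limited by their counts.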
